A study of Mus musculus with 90 samples.

Results

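The genes described here are 9 genes that astrocytes use: the glutamate transporters Slc1a2 and Slc1a3, the glutamine synthetase gene Glul, the connexins Gja1 and Gjb6, the water channel Aqp4, the intermediate filament gene Gfap, the aldolase gene Aldoc and the calcium-binding protein gene S100b. They were chosen by name, and all 9 of 9 were found among the 19962 genes measured. Expression was read in mouse brain sections, fixed in formalin, embedded in paraffin and cut at 5 µm, with the GeoMx Digital Spatial Profiler. In this assay, probes of the mouse Whole Transcriptome Atlas bind RNA in the section, and their tags are released by light from a chosen area of interest (AOI) and sequenced. The tested animals were 6 mice exposed to chronic social stress (CSS), set against 4 control (ctrl) mice, and every AOI carried a label of p16 high or p16 low. AOIs lay in the choroid plexus (CP), the hippocampal fields CA3 and CA1, the motor cortex (MC) and the somatosensory cortex (SS). Of 100 possible AOIs, 90 were present (46 p16 high and 44 p16 low, 3 to 6 mice in each combination). The sources used here do not give the age, sex or strain of the mice, nor how p16 status was assigned. p16 is a cell cycle inhibitor used as a marker of senescent cells.

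Astrocytes are glial cells that wrap synapses and blood vessels. Their transporters take up glutamate released by neurons, glutamine synthetase turns it into glutamine, and the glutamine is passed back to neurons. Connexins join astrocytes into networks through gap junctions, Aqp4 sits mainly in the endfeet on vessels, and Gfap is known to differ between brain regions and to rise in reactive astrocytes. The choroid plexus is an epithelium that makes cerebrospinal fluid and is not astrocyte tissue.

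In the mouse genome (GRCm38.p6, RefSeq annotation), the transporter genes lie at chr2:102658239-102790784 and chr15:8634124-8710807 for Slc1a2 and Slc1a3, and Glul at chr1:153899929-153909723. The connexin genes Gja1 and Gjb6 lie at chr10:56377300-56390419 and chr14:57123301-57133611. Gfap and Aldoc share a chromosome, at chr11:102887336-102897200 and chr11:78323073-78327781, and S100b lies at chr10:76253836-76261319. All 9 are annotated as protein-coding.

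Promoters from RefSeq (GRCm38.p6, 250 bases before to 50 after the annotated start) were at hand for 8 of the 9 genes. Those of Gfap, whose regional pattern stood apart from the other members, and of Aldoc and Glul, whose levels followed each other most closely, are shown 5′ to 3′ on the gene's strand. Capitals mark the motif matches.
Gfap, chr11:102897151-102897450, minus strand: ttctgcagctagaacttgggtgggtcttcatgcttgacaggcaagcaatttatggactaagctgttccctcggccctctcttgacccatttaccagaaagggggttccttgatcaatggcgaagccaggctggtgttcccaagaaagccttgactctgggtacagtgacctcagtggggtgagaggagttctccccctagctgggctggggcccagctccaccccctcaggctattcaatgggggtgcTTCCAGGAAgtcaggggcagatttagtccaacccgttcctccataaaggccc
Aldoc, chr11:78322823-78323122, plus strand: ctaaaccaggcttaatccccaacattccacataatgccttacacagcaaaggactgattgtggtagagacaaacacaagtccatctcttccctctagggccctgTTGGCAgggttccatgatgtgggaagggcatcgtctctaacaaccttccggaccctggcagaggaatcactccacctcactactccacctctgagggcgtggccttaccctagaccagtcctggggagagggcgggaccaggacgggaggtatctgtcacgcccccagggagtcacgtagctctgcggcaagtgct
Glul, chr1:153899679-153899978, plus strand: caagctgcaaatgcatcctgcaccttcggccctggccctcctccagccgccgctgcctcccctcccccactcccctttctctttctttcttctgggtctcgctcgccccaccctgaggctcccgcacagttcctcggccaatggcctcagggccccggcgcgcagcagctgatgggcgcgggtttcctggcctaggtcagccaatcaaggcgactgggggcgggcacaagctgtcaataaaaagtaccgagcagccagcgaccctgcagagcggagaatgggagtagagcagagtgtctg
Motifs were searched on both strands. For the signal transducer STAT the letters were TTCNNNGAA, for the nuclear factor I half-site they were TTGGCA, and for the glucocorticoid receptor half-site they were AGAACA. The core promoter box was searched as TATAAA, and the SOX motif as ACAAAG. The Gfap window held 1 STAT match, which begins 2 bases before the annotated start, and 8.298% of all 32851 promoters of this length held at least 1. The Aldoc window held 1 nuclear factor I half-site, 146 bases before the start, against 14.1% of all promoters. RefSeq lists 2 starts for Aldoc; the window of the other start, not shown, held 2 STAT matches. None of these letters was found in the Glul window, where 13.6% of all promoters held the TATAAA box, 18.97% the glucocorticoid receptor half-site and 18.7% the SOX motif.

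Values are the authors' deposited signal, in which the median gene of each AOI stands at 22.067. Total counts per AOI, as the steps between values give them, ran between 184469 and 2098984 (in 34 of the 90 AOIs no gene stood at 1 count, so the size of 1 count was not seen directly), and differences below are on the log2(signal + 1) scale. A call is an adjusted p under 0.05 from limma over all 19962 genes, and the mouse is the replicate. The negative control probe, which binds no mouse transcript, read 13.4 in CP, 14.2 in CA3, 13.1 in CA1, 16.5 in MC and 15.9 in SS (means over 9 or 10 mice). Glul, Aldoc and Gja1 were above it in all 90 AOIs, Slc1a2 in 89, Slc1a3 in 88, Aqp4 and S100b in 86, Gfap in 83 and Gjb6 in 79. The lowest count in any AOI was 1 for Gjb6, 2 for Gfap, 3 for Slc1a2 and Aqp4 and 53 for Glul. An AOI holds many cells of several types, so fewer astrocytes and less of an RNA in each astrocyte cannot be told apart.

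The members did not share a single order of subregions. Per mouse, Slc1a2 signal averaged 30.2 ± 7.38 in CP, 417 ± 120.4 in CA3, 196 ± 49.6 in CA1, 361 ± 72.2 in MC and 344 ± 65.99 in SS (SD, n = 9 mice in CP and 10 elsewhere, as for the values that follow). Its order was thus CA3, MC, SS, CA1, CP, where CA3 to MC and MC to SS did not pass the test and the other neighbours did. With quantile normalization, Slc1a2 was instead lower in CA3 than in MC, with a log2 difference of -0.80 (adjusted p = 3.07e-07). With negative probe scaling it was called higher in CA3 than in MC (0.37, adjusted p = 0.0229) and than in SS (0.38, adjusted p = 0.00139). Slc1a3, the other uptake transporter, averaged 21.1 ± 4.28 in CP, 51.7 ± 17.2 in CA3, 43.7 ± 7.87 in CA1, 53.96 ± 7.35 in MC and 52.2 ± 10.1 in SS. Of its neighbours in the order MC, SS, CA3, CA1, CP, CA1 and CP alone were called different. Glul averaged 298 ± 86.2 in CP, 331 ± 81.7 in CA3, 228 ± 50.4 in CA1, 383 ± 77.2 in MC and 349 ± 83.5 in SS, and its lowest subregion was CA1 and not CP, the step between those neighbours being called.

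Gja1, which encodes connexin 43, averaged 24.2 ± 5.01 in CP, 62.6 ± 12.7 in CA3, 45.1 ± 9.52 in CA1, 56.9 ± 11.4 in MC and 55.05 ± 11.6 in SS. Its neighbours CA3 and MC, and MC and SS, were not called, whereas SS to CA1 and CA1 to CP were, the step from SS to CA1 being lost without mouse 1168, 1169 or 1170, with matched p16 labels (adjusted p = 0.0805) and with negative probe scaling (CA1 minus SS -0.03, adjusted p = 0.891). Gjb6, which encodes connexin 30, averaged 18.3 ± 7.197 in CP, 22.1 ± 5.78 in CA3, 22.96 ± 5.09 in CA1, 25.7 ± 5.45 in MC and 26.6 ± 3.74 in SS. No step between its neighbours, in the order SS, MC, CA1, CA3, CP, passed the test. Aqp4 averaged 19.2 ± 4.52 in CP, 26.4 ± 4.56 in CA3, 21.96 ± 4.12 in CA1, 26.5 ± 4.97 in MC and 24.7 ± 3.92 in SS, and none of its neighbours in the order MC, CA3, SS, CA1, CP was called either. Both genes lay near the negative probe, at means of 1.56 times its signal for Gjb6 and 1.64 times for Aqp4.

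Gfap averaged 19.5 ± 5.65 in CP, 70.1 ± 10.6 in CA3, 47.4 ± 13.1 in CA1, 24.3 ± 7.98 in MC and 29.3 ± 10.2 in SS. Its order put both hippocampal fields first: CA3 to CA1 and CA1 to SS were called steps, SS to MC and MC to CP were not. The step between CA1 and SS was lost with quantile normalization and with 75th percentile scaling. Aldoc averaged 36.6 ± 4.76 in CP, 168 ± 36.9 in CA3, 142 ± 34.97 in CA1, 219 ± 52.3 in MC and 189 ± 39.7 in SS. In its order MC, SS, CA3, CA1, CP the steps CA3 to CA1 and CA1 to CP were called. S100b averaged 18.2 ± 5.18 in CP, 61.1 ± 12.3 in CA3, 36.7 ± 8.94 in CA1, 59.1 ± 14.8 in MC and 55.9 ± 12.6 in SS, with called steps at SS to CA1 and CA1 to CP in the order CA3, MC, SS, CA1, CP.

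**Figure D1:**
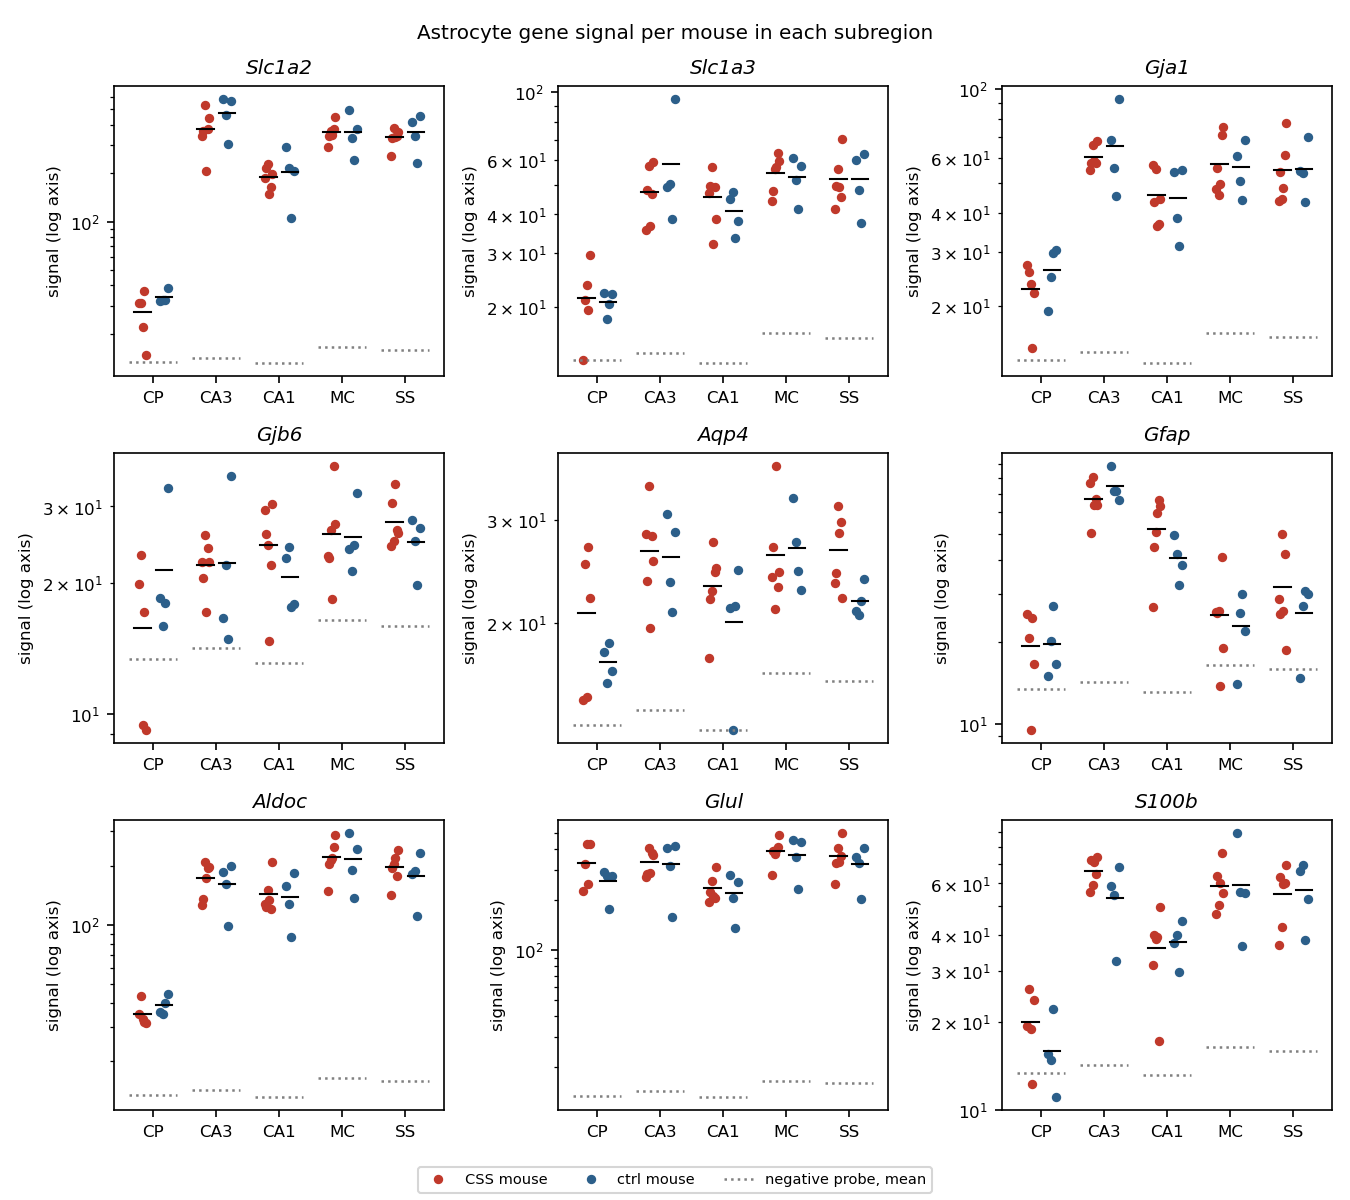
Signal of each astrocyte gene (log axis, scaled so that the median gene of an AOI is at 22.067) in the 5 subregions. Each point is a mouse (red, CSS; blue, ctrl), black lines are group means and dotted lines the mean of the negative probe. Slc1a2 and Aldoc drop in CP, Glul does not, and Gfap is highest in CA3 and CA1.

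Within the hippocampus, 6 of the 9 members were higher in CA3 than in CA1 and none was called lower, where 17.7% of all genes were called and 5.04% were called higher. The 6 cover glutamate uptake (Slc1a2), glutamine synthesis (Glul), gap junctions (Gja1), the cytoskeleton (Gfap), glycolysis (Aldoc) and S100b. The median difference of the members was 0.47, against 0.00 over all genes.

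Slc1a2 signal was 206, 409 and 578 (lowest, median and highest mouse) in CA3, against 105, 202 and 289.8 in CA1. It was higher in CA3 in 10 of 10 mice, by 2.09-fold, a log2 difference of 1.06 (SE 0.09, adjusted p = 1.91e-11). S100b was 32.4, 62.1 and 74.1 in CA3 and 17.2, 38.9 and 49.6 in CA1, and was higher in CA3 in 10 of 10 mice, by 0.73 (SE 0.12, adjusted p = 2.36e-05). The ranges of both genes overlapped between the fields, and the pairing within mice shows the order.

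Glul was also higher in CA3 in 10 of 10 mice, at 159, 346 and 419 in CA3 and 135, 216 and 312 in CA1, a difference of 0.53 (SE 0.07, adjusted p = 1.53e-06). Gfap was 50.2, 69.5 and 88.5 in CA3 and 26.8, 47.1 and 66.2 in CA1, higher in 9 of 10 mice by 0.59 (SE 0.12, adjusted p = 0.000535). Gja1 was 45.3, 58.4 and 92.7 in CA3 and 31.2, 43.6 and 57.01 in CA1, higher in 9 of 10 mice by 0.47 (SE 0.10, adjusted p = 0.000482). These 3 genes moved by between 1.38-fold and 1.502-fold on the fitted scale. Aldoc differed least among the called, by 0.25 (SE 0.08, adjusted p = 0.0276) and in 8 of 10 mice. The Aldoc call was lost without mouse 1151, 1162, 1163, 1168 or 1169, with only AOIs of matched p16 labels, without the mouse as a paired block (adjusted p = 0.296) and with negative probe scaling (adjusted p = 0.336).

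Slc1a3, with 0.19 (SE 0.12, adjusted p = 0.322), Aqp4, with 0.27 (SE 0.14, adjusted p = 0.203), and Gjb6, with -0.09 (SE 0.15, adjusted p = 0.773), were not called between CA3 and CA1. So the transporter pair and the connexin pair each had 1 called and 1 uncalled member. That Slc1a2 differed more than Slc1a3, or Gja1 more than Gjb6, was not tested.

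Of 43 other astrocyte genes in the list used here, 19 were called higher in CA3 and 2 lower. Mt1 differed by 0.59 and Mt2, both metallothioneins, by 0.75, while Atp1b2 was lower by -0.96. Among 12 genes of the glutamate and glutamine cycle, 4 were higher, 2 of them the members Slc1a2 and Glul, and Slc1a1, the neuronal transporter, was lower, at -0.74.

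Other marker lists moved between the same fields. Of 12 oligodendrocyte markers, 12 were above 0 and 6 called higher in CA3, and their summed signal ran over 581 to 980.1 in CA3 against 369 to 618 in CA1. Of 13 neuron markers, 6 were called higher in CA3 and 3 lower, with sums of 5277 to 13772 in CA3 and 4459 to 8591 in CA1. The 10 choroid plexus epithelium markers summed to 175 to 662 in CA3 and 189 to 242 in CA1, with Ttr, which the choroid plexus secretes, higher by 3.16. None of these markers had a mean of 0 in either field, and their part in the astrocyte gene differences was not tested.

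The all-gene balance of this comparison depends on the scaling. On the deposited scale 1007 genes were called higher in CA3 and 2528 lower, against 2525 and 1442 with 75th percentile scaling, 1562 and 1631 with quantile normalization and 607 and 3880 with negative probe scaling. Among genes above the median signal, where all members lie, 904 were called higher and 2754 lower. Slc1a2, Gja1, Gfap, Glul and S100b were called higher in CA3 under all of these.

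Hippocampus (mean of CA3 and CA1) and cortex (mean of MC and SS) differed in 7 of 9 members, where 51.1% of all genes were called. Gfap was higher in hippocampus, as were 34.4% of genes. Glul, Aldoc, Slc1a2, S100b, Gjb6 and Slc1a3 were lower, as were 16.7%. The mean signals of the members lay between the 51.7 and 99.2 percentiles of all genes. Among genes above the median signal alone, 6771 were called higher in hippocampus and 917 lower. Calls of both directions together were thus a larger share of these genes than of all genes, and calls lower were a smaller share. The 7 of 9 members called were near the share called among these genes. Gja1 and Aqp4 were not called, at -0.09 (95% interval -0.25 to 0.07) and -0.10 (95% interval -0.28 to 0.08).

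Gfap signal was 47.5, 59.3 and 68.9 (lowest, median and highest of 10 mice) in hippocampus, against 14.4, 26.1 and 41.6 in cortex, and the ranges did not overlap. The difference was 1.14 (SE 0.11, adjusted p = 3.33e-11), in 10 of 10 mice. It was called in each of CA3 against MC (1.56), CA3 against SS (1.31), CA1 against MC (0.97) and CA1 against SS (0.73). CA1 against SS was not called with quantile normalization (0.30, adjusted p = 0.103) or 75th percentile scaling (0.29, adjusted p = 0.0649). In MC, Gfap averaged 1.41 times the negative probe and was at or below it in 4 of 19 AOIs, so the level in MC is poorly measured.

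Glul signal was 147, 278 and 345 in hippocampus and 218, 377 and 494 in cortex, lower in hippocampus in 10 of 10 mice by -0.42 (SE 0.06, adjusted p = 6.42e-07). Aldoc was 92.7, 156 and 203 in hippocampus and 124, 212 and 264 in cortex, lower in 10 of 10 mice by -0.39 (SE 0.06, adjusted p = 8.34e-07). Slc1a2 was 178, 306 and 434 in hippocampus and 237, 349 and 456 in cortex, with a difference of mean log2 values of -0.34 (SE 0.07, adjusted p = 0.000141). Its signal was slightly higher in hippocampus in mice 1162 (379 against 373) and 1168 (338 against 336), and lower in the other mice. The ranges of all 3 genes overlapped.

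For Slc1a2 the average over fields joins unlike parts: CA1 was below MC by -0.91 (SE 0.08, adjusted p = 3.54e-10), whereas CA3 did not differ from MC at the threshold (0.15 (SE 0.12, adjusted p = 0.355)). S100b (-0.27 (SE 0.08, adjusted p = 0.00735)), Gjb6 (-0.25 (SE 0.09, adjusted p = 0.0191)) and Slc1a3 (-0.18 (SE 0.07, adjusted p = 0.043)) were lower in hippocampus by less. The Slc1a3 call was lost without mouse 1151, 1163, 1169, 1170 or 1175, and the Gjb6 call without mouse 1163; both were lost with AOIs of matched p16 labels. Without the mouse as a paired block, Slc1a2 (adjusted p = 0.0592) and Slc1a3 (adjusted p = 0.153) were not called. Among the pairs of single fields, 7 members were called between CA1 and MC (47.6% of all genes), 6 between CA1 and SS (43.1%), 2 between CA3 and MC (31.7%) and 1 between CA3 and SS (30.6%). On the deposited scale CA1 thus held most of the called differences, and Gfap alone was higher in CA1 than in cortex. Among genes above the median signal, 6483 were called higher and 911 lower in CA1 than in MC. Against SS these were 6558 and 755. The 7 and 6 members called for CA1 were near the shares of such genes. For CA3 the counts were 5266 and 640 against MC, and 5406 and 553 against SS. The called members were Gfap and Aldoc between CA3 and MC, and Gfap between CA3 and SS. Like Slc1a2, the members Glul, S100b, Slc1a3 and Gjb6 were not called between CA3 and either cortical area. Slc1a2 was called higher in CA3 than in SS with matched p16 labels (0.33, adjusted p = 0.00132) and without mouse 1163 (0.32, adjusted p = 0.00132). Gjb6 was called lower in CA3 than in MC and SS without mouse 1182, and Glul lower than in MC without mouse 1169. Among genes above the median signal, Slc1a2 against SS and Gjb6 against both areas were called too. With quantile normalization, all members but Gjb6 and Aqp4 were called between CA3 and MC, and all but Aqp4 between CA3 and SS.

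**Figure D2:**
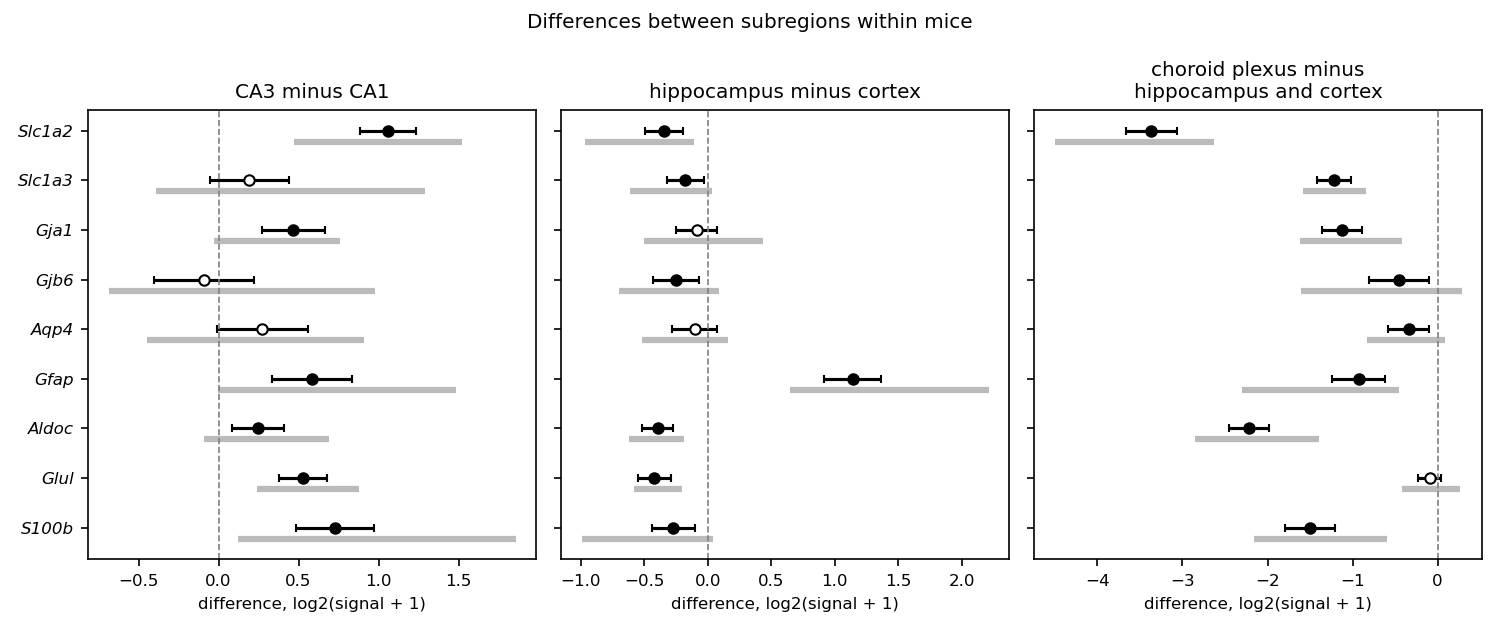
Difference of log2(signal + 1) within mice for each astrocyte gene. Points are fitted differences with 95% intervals (filled, adjusted p under 0.05) and grey bars span the lowest to the highest mouse. Gfap is the member above 0 in hippocampus minus cortex, and Glul stays near 0 in choroid plexus minus the rest.

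The size of the smaller hippocampal differences, and whether they were called, rested on the scaling. With negative probe scaling the sign changed for Slc1a3, Gja1 and Aqp4, and the other members kept theirs. With each AOI scaled to its negative probe, Gfap was 1.38 (adjusted p = 1.03e-14) and Glul -0.17 (adjusted p = 0.0496), and no other member was called. Over all genes, 6864 were higher and 3330 lower on the deposited scale, 9254 and 336 with negative probe scaling, 3749 and 12451 with 75th percentile scaling, and 3088 and 2660 with quantile normalization. These scalings moved the median of all genes to 0.20 with the negative probe and -0.37 with the 75th percentile, against -0.03 on the deposited scale. Relative to those medians, Gfap stayed above and Glul, Aldoc and Slc1a2 below.

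**Figure D3:**
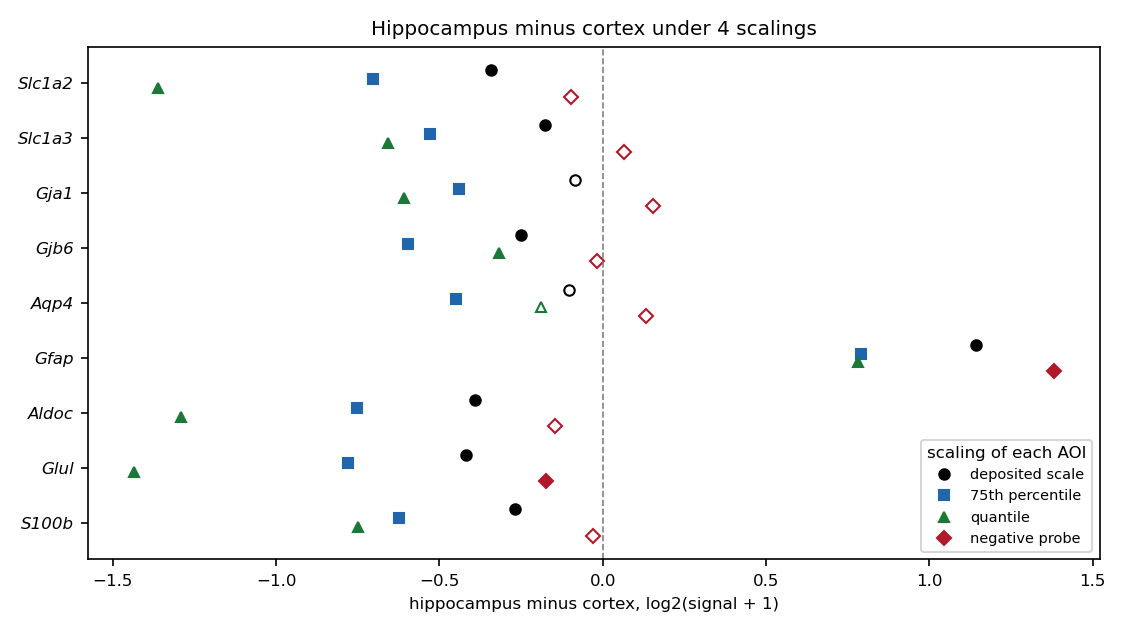
Hippocampus minus cortex, as the difference of log2(signal + 1), for each astrocyte gene under 4 scalings of the AOIs (filled, adjusted p under 0.05). Gfap is above 0 under all 4, and Slc1a3, Gja1 and Aqp4 lie above 0 with negative probe scaling and below it with the other 3.

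The cell type content also differed. In hippocampus, 11 of 13 neuron markers were called higher, 11 of 12 oligodendrocyte, 8 of 11 microglia and 7 of 10 endothelium markers lower. Neuron markers summed to 5277 to 13772 in CA3 and 4459 to 8591 in CA1, against 2597 to 6998 in MC and 2643 to 5388 in SS. Their part in the astrocyte gene differences was not tested. Of the 43 other astrocyte genes, 8 were higher and 19 lower in hippocampus, among them Mt3 at 1.13 and Sparcl1, a matricellular protein gene, at -0.49. Of 36 genes of a reactive astrocyte list, 6 were higher, with Serpina3n, a protease inhibitor, at 1.87, and 11 lower, with H2-T23, a class I antigen gene, at -1.07. Gfap belongs to that list.

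The motor and somatosensory cortex were not told apart by any gene: limma called 0 of 9 members and 0% of all genes, while 2 members and 1100 genes had an unadjusted p under 0.05. Those members were Aldoc, higher in MC in 10 of 10 mice by 0.21 (SE 0.08, adjusted p = 0.903), and Gfap, lower in MC by -0.24 (SE 0.11, adjusted p = 0.903). Intervals for the other 7 members lay within -0.28 and 0.33.

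In the choroid plexus, 8 of 9 members were called lower than the mean of CA3, CA1, MC and SS, where 40.2% of all genes were called and 19.6% were lower. Glul was the exception. The CP label was borne out by its markers: 10 of 10 epithelium markers were higher in CP, with summed signals of 58456 to 113086 in CP and Ttr higher by 10.94.

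Slc1a2 signal was 14.7, 31.997 and 38.6 in CP (9 mice), below its lowest value in any other subregion, which was 105 in CA1. The difference was -3.37 (SE 0.14, adjusted p = 1.22e-13), or 10.3-fold lower in CP. Aldoc was 31.3, 34.98 and 44.1 in CP, likewise below every other subregion, by -2.22 (SE 0.11, adjusted p = 1.44e-12) or 4.65-fold. S100b was 11.03, 18.9 and 25.9 in CP, lower by -1.5002 (SE 0.14, adjusted p = 2.16e-08), and it was above the negative probe in 12 of 16 CP AOIs.

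Slc1a3 (-1.22 (SE 0.09, adjusted p = 1.04e-09)), Gja1 (-1.12 (SE 0.11, adjusted p = 5.66e-08)) and Gfap (-0.93 (SE 0.15, adjusted p = 3.22e-05)) were lower in CP in 9 of 9 mice. Gjb6 (-0.45 (SE 0.17, adjusted p = 0.0388)) and Aqp4 (-0.34 (SE 0.11, adjusted p = 0.0194)) were lower in 8 of 9. The Gjb6 call was lost without mouse 1152, 1162, 1168 or 1170, the Aqp4 call without mouse 1152 or 1162, and both with negative probe scaling. Against single subregions on the deposited scale, CP was not called different from MC or SS for Gfap. The same held for CA1 and SS with Aqp4, and for CA1 and CA3 with Gjb6. The call of Aqp4 against CA3 was lost without mouse 1151, 1152, 1162, 1168 or 1182, and with matched p16 labels. It was also lost with 75th percentile scaling and with negative probe scaling. The call of Gjb6 against MC was lost without mouse 1162 or 1170 and with negative probe scaling. In CP, the mean signal of Slc1a2, Slc1a3, Gja1, Gjb6, Aqp4, Gfap and S100b was 1.29 to 2.16 times the negative probe, so that the folds of these genes are bounded by background.

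Glul signal was 176, 279 and 430.3 in CP, within the range of the other subregions. The difference was -0.09 (95% interval -0.23 to 0.04) on the log2 scale, with adjusted p = 0.276. Glul was higher in CP than in CA1 in 9 of 9 mice, by 0.36 (SE 0.07, adjusted p = 0.000174), and lower than in MC by -0.37 (SE 0.08, adjusted p = 0.000544) and than in SS by -0.23 (SE 0.07, adjusted p = 0.00893). Without the mouse as a paired block, none of these 3 was called (adjusted p = 0.0652 for CA1, 0.0964 for MC and 0.34 for SS). With negative probe scaling, Glul in CP was not called against MC (-0.08, adjusted p = 0.445) or SS (0.018, adjusted p = 0.881). Among pairs with single subregions, 7 members were called between CP and CA1 (41.9% of all genes), 7 between CP and CA3 (37.2%), 8 between CP and MC (39.4%) and 7 between CP and SS (38.2%).

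Other astrocyte genes went both ways in CP: 17 of 43 were higher and 17 lower. Clu and Apoe, secreted lipid carriers, were higher by 3.26 and 3.03, Cst3, a protease inhibitor, by 1.64 and the amino acid transporter Slc7a10 by 3.33. Slc38a3, a glutamine transporter, was higher by 3.63. Over all genes 4113 were called higher in CP and 3921 lower, against 5691 and 2874 with negative probe scaling. Among genes above the median signal, where all members lie, 3213 were called higher and 3616 lower.

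The p16 label moved no member past the threshold. In hippocampus and cortex, limma called 0 of 9 members between p16 high and p16 low AOIs, with 10 mice compared within themselves, and 0.386% of all genes. Of the members, 1 had an unadjusted p under 0.05, Gja1.

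Gja1 signal was 36.3, 53.2 and 66.4 (lowest, median and highest mouse) in p16 high AOIs, against 42.6, 51.7 and 87.7 in p16 low AOIs, and the ranges overlapped. The difference was -0.17 (SE 0.08, adjusted p = 0.321), and p16 high was the higher in 3 of 10 mice. Slc1a2 averaged 327 ± 60.01 in p16 high AOIs and 339 ± 90.9 in p16 low AOIs (SD, n = 10), with a difference of 0.00 (95% interval -0.12 to 0.12). Gfap averaged 38.3 ± 7.28 in p16 high AOIs and 43.2 ± 8.89 in p16 low AOIs, with a difference of -0.13 (95% interval -0.30 to 0.04).

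Among the members the intervals were narrowest at 0.02 (95% interval -0.07 to 0.12) for Aldoc and -0.04 (95% interval -0.14 to 0.06) for Glul, and widest for Gjb6, at -0.06 (95% interval -0.31 to 0.19). The p16 high and p16 low AOIs of 1 mouse and subregion differed by a median of 0.11 for Glul and 0.45 for S100b, in absolute log2 units over 34 pairs. The negative probe averaged 14.7 in p16 high AOIs and 15.1 in p16 low AOIs and was lower in p16 high in 9 of 10 mice. Its part in these differences was not tested.

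Within single subregions no member was called either, and the share of all genes called was 0.0902% in CA1 and 0% in CA3, MC, SS and CP. Of 45 member and subregion values, 4 had an unadjusted p under 0.05, and the smallest adjusted p was 0.271. Of those 4, 3 were in CA3, where p16 high minus low was -0.55 (95% interval -0.9999 to -0.10) for Gjb6, -0.29 (95% interval -0.56 to -0.02) for Slc1a3 and 0.34 (95% interval 0.03 to 0.65) for S100b. The remaining value was Slc1a3 in SS, at 0.24 (95% interval 0.01 to 0.46), of the opposite sign to CA3. These rest on 8 mice in CA3 and 9 in SS.

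**Figure D4:**
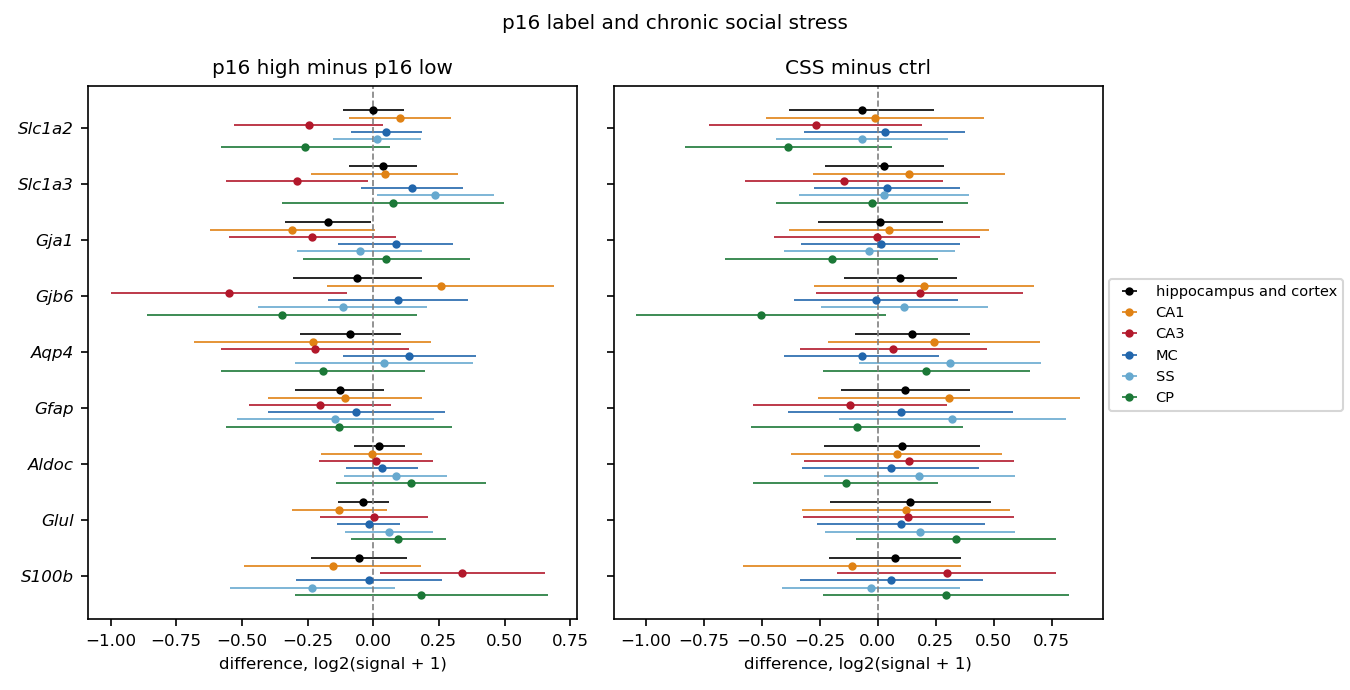
Differences of log2(signal + 1) with 95% intervals for each astrocyte gene, p16 high minus p16 low (left) and CSS minus ctrl (right), in hippocampus and cortex together and in each subregion. No value passed the adjusted threshold.

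Chronic social stress changed no member at the threshold. In hippocampus and cortex, limma called 0 of 9 members and 0% of all genes between 6 CSS and 4 ctrl mice. No member and 146 genes had an unadjusted p under 0.05. Differences of 8 of 9 members lay above 0, with a median of 0.10 against -0.01 over all genes. Total counts per AOI, averaged per mouse, were 624040 ± 280593 in CSS and 826280 ± 424690 in ctrl mice (SD, n = 6 and 4). The part of this depth in the stress differences was not tested.

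Gfap averaged 43.99 ± 7.199 in CSS (n = 6) and 40.9 ± 1.19 in ctrl mice (SD, n = 4), with a difference of 0.12 (95% interval -0.16 to 0.40). In CA1, Gfap was 26.8, 55.1 and 66.2 (lowest, median and highest) in CSS mice, against 49.4, 41.9, 32.3 and 38.4 in the 4 ctrl mice. The difference there was 0.31 (95% interval -0.26 to 0.87), and the groups overlapped. Slc1a2 averaged 316 ± 47.4 in CSS and 350.4 ± 97.4 in ctrl mice, with a difference of -0.07 (95% interval -0.38 to 0.24).

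Aqp4, at 0.15 (95% interval -0.10 to 0.40), and Glul, at 0.14 (95% interval -0.21 to 0.49), gave the largest positive values among the members. CSS mice had a summed signal of the 9 genes between 878 and 1292. In the 4 ctrl mice the summed signal of the 9 genes was 1293, 1048, 707 and 1277, so that mouse 1175 was lowest. Mouse 1175 also had the highest negative probe signal, 17.2, and without it no member was called either.

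No subregion gave a called member for stress, and 0% of all genes were called in each of CA1, CA3, MC, SS and CP. None of 45 values had an unadjusted p under 0.05. The largest were in CP, where Slc1a2 was 14.7, 31.2 and 36.8 in 5 CSS mice, against 31.997, 32.5, 32.4 and 38.6 in ctrl mice. The difference was -0.39 (95% interval -0.83 to 0.06). Gjb6 was 9.19, 17.2 and 23.3 in CSS and 18.5, 15.97, 18.03 and 33.1 in ctrl mice, with a difference of -0.50 (95% interval -1.04 to 0.04). Both ranges overlapped, and both genes are near background in CP.

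Whether a within-mouse difference itself depended on stress was tested for 3 differences. CSS minus ctrl of the p16 difference, of CA3 minus CA1 and of hippocampus minus cortex gave 0 called members and 0% of all genes each, and no member with an unadjusted p under 0.05. For CA3 minus CA1 the members with the largest size were S100b, at 0.47 (95% interval -0.18 to 1.12), and Gfap, at -0.47 (95% interval -1.16 to 0.22). With 6 against 4 mice, these intervals hold both sizeable increases and sizeable decreases, and they do not show that CSS and ctrl mice were alike.

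Over 40 points (10 mice in CA3, CA1, MC and SS), which share libraries, scaling and mice, the pairs among Slc1a2, Slc1a3, Gja1, Aldoc, Glul and S100b had a Pearson r between 0.44 and 0.93. Pairs that hold Gfap, Aqp4 or Gjb6 ran between -0.36 and 0.58, so both ranges overlapped. Aldoc and Glul had a Pearson r of 0.93 on the log2 scale, and the same value, 0.93, after the subregion means were removed. Slc1a2 followed Glul with 0.83 and Gja1 with 0.76. Gfap ranged between -0.36 with Aldoc and 0.06 with Aqp4. Aqp4 and Gjb6, the members closest to background, had -0.08 with each other.

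Several members also moved with the negative probe. After the subregion means were removed, its log2 signal had an r of -0.74 with Glul, -0.74 with Aldoc, -0.57 with Gja1 and -0.56 with Slc1a2. It was -0.49 with Slc1a3 and -0.46 with S100b, but -0.17 with Aqp4, -0.07 with Gjb6 and 0.20 with Gfap. How much of the agreement among members follows background was not tested.

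**Figure D5:**
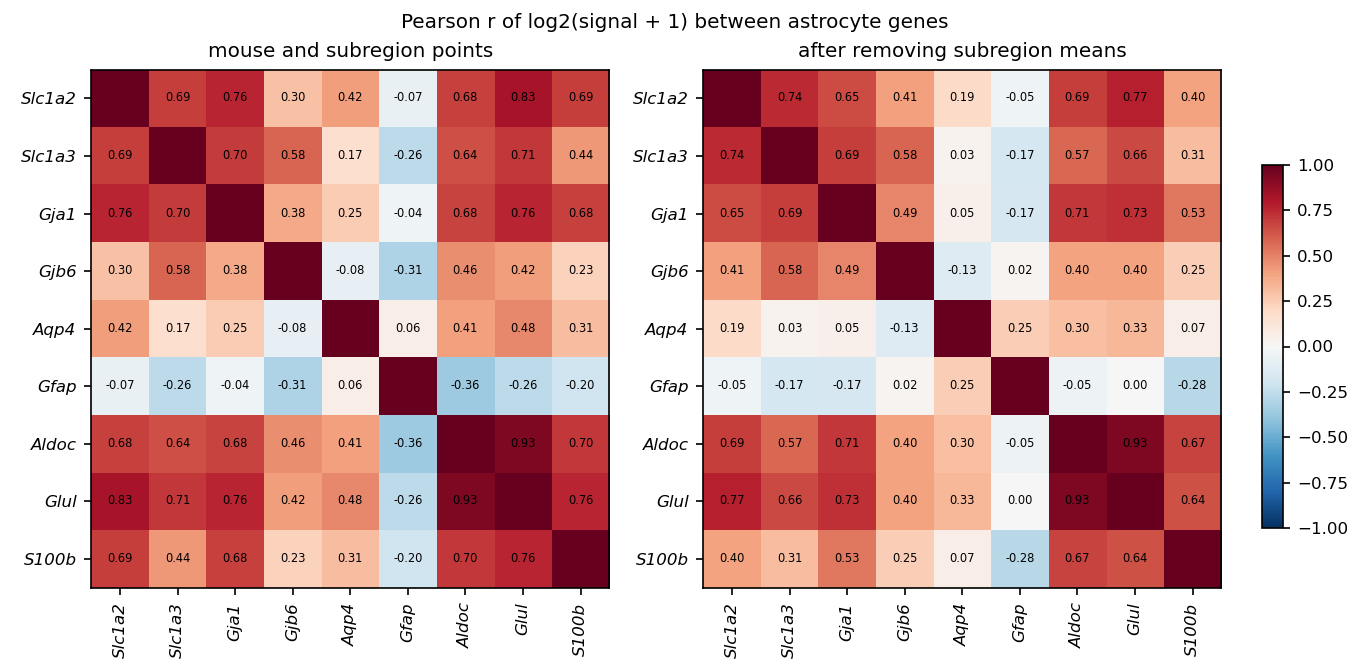
Pearson r between astrocyte genes over 40 points (10 mice in CA3, CA1, MC and SS), before (left) and after (right) subregion means were removed. Aldoc and Glul stand at 0.93 in both, and Gfap lies between -0.36 and 0.06 with the other members before subregion means were removed.

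Of the genes above the median signal, those closest to the mean of the members included Apoe (0.94), Ndrg2 (0.88), Plpp3, Mtss2, Arrb1, Fads1, Gstm1, 6430548M08Rik and Sparcl1 (0.78). Likeness is Pearson r over the 40 points. Gfap had its own nearest genes, Arhgef17 (0.83), Lrrc10b (0.82) and Fam13c (0.81). For Glul they were Apoe (0.94), Ndrg2 (0.92) and Sparcl1 (0.89), and those of Slc1a2 included Stac2 (0.88) and Rph3a (0.86). After the subregion means were removed, the genes closest to the mean of the members included Apoe (0.92), Ndrg2 (0.88) and Cst3 (0.86). Clu (0.85), Ppp1r9b (0.85), Shank1 (0.84), Kif5a (0.83), Scd2 (0.83) and Fads1 (0.82) were also among them.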

How the data were processed

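Signal values for 19962 genes and 1 negative control probe in 90 AOIs were taken as deposited. The authors scaled the signal so that each AOI had the same median, 22.067, as the values show. Multiplied by 1 factor per AOI, at least 99.985% of the values are whole numbers within 0.01, and such totals ran between 184469 and 2098984 counts per AOI. In 34 of 90 AOIs no gene stood at 1 count, so the factor could not be checked there. Depth limits the genes near the negative probe most, and the intervals are those of the fit across mice. The submitters' processing notes name the mm10 build; which tools processed the reads is not stated in the labels.

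AOIs were grouped by the labels' stress group, subregion, p16 label and mouse, and averaged per mouse on the log2(signal + 1) scale. limma 3.58.1 (R 4.3.3; lmFit, then eBayes with trend) was run 2-sided over all genes with Benjamini-Hochberg adjustment, and an adjusted p under 0.05 was called. The mouse was a block in comparisons within animals, because same-numbered AOIs come from the same animal; over 41 pairs of groups the deviations of same-numbered AOIs had a median correlation of 0.071, above 0.1 in 13. The p16 comparisons used complete pairs, and the stress comparison used AOIs centred within subregion and p16 label. Mouse 1169 has no CP value, so CP comparisons use 9 mice.

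The pseudocount, a filter on low signal, 3 scalings, the block, the matching of labels and each mouse in turn were varied. The members and the other gene lists were chosen with earlier results of these data known. All 9 members are named; from each other list, up to 4 genes with the smallest unadjusted p, and the 10 genes (3 per member) most like the members. An item that this rule would name is not reported here. The fits were tested on simulated data.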

Additional observations from a re-analysis of the deposited data

Results flagged for a closer look

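Of 90 groups of 4 to 6 mice (a member in a subregion, CSS or ctrl), 5 held a mouse whose gap to its nearest neighbour was large for the range of its group by Dixon's criterion, and chance gives about 1 in 20 groups. The gap over range was taken on the log2(signal + 1) scale. The values below are signal, from which the ratio comes out differently. Slc1a2 in SS of CSS mouse 1152 was 255 where the others ran between 332 and 381 (gap over range 0.656). Slc1a2 in CP of ctrl mouse 1182 was 38.6 where the others ran between 31.997 and 32.5 (0.912). Aqp4 in CA1 of ctrl mouse 1168 was 13.1 where the others ran between 21.3 and 24.6 (0.8293). Gfap in SS of ctrl mouse 1151 was 14.7 where the others ran between 26.98 and 30.8 (0.847). Glul in CP of ctrl mouse 1175 was 176 where the others ran between 278 and 295 (0.892).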

How the results depend on the processing

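The numbers of called members were 0 for the p16 label, for stress and for MC against SS under every alternative run. Leaving out each mouse in turn gave 5 to 6 called members for CA3 against CA1, 6 to 8 for the choroid plexus against hippocampus and cortex, 5 to 7 for hippocampus against cortex, 2 to 3 for CA3 against MC and 1 to 2 for CA3 against SS. Negative probe scaling gave 2 for hippocampus against cortex (7 as reported) and 5 for CP against MC (8). For CA3 against MC (2), quantile normalization gave 7, 75th percentile scaling 5, and the fit with no replicate block, that is, without pairing by mouse, 1. For CA3 against SS (1), quantile normalization gave 8, 75th percentile scaling 5, negative probe scaling 4, the genes above the median signal 3 and matched p16 labels 2. With quantile normalization the sign reversed for Slc1a2 (-0.80), Gja1 (-0.36) and S100b (-0.44) in CA3 against MC, for Slc1a2 (-0.78), Gja1 (-0.31) and S100b (-0.35) in CA3 against SS, and for Glul in CP against CA3 (0.30). Negative probe scaling reversed Slc1a3 in hippocampus against cortex (0.066) and in CA1 against MC (0.021), and Glul in CP against SS (0.018). The causes were not tested. Over the other pairs with 1 subregion, leaving out a mouse gave 5 to 8 called members. Counts over all genes moved more. The p16 label had 77 genes called higher in hippocampus and cortex, against 1284 higher and 4 lower with negative probe scaling, 267 and 1 among genes above the median signal, 128 and 1 with a pseudocount of 10, and 0 with quantile normalization or 75th percentile scaling. In CA1 it had 18 higher, against 631 higher and 6 lower, 137 and 4, and 79 and 7 in the same order, 5 and 4 with quantile normalization and 8 and 2 with 75th percentile scaling; in CA3 it had 0, against 316 and 2 with negative probe scaling. MC against SS, with 0, had at most 5 higher and 6 lower (quantile normalization), and stress at most 2. Hippocampus against cortex, with 10194 genes called, had 3088 higher and 2660 lower with quantile normalization and 3749 and 12451 with 75th percentile scaling. For CA1 against MC (9494), CA1 against SS (8601), CA3 against MC (6337) and CA3 against SS (6113), these were 2517 and 2273, 2618 and 2189, 1812 and 1542, and 1980 and 1556 with quantile normalization, and 3311 and 11968, 3420 and 11515, 3085 and 8419, and 3192 and 7167 with 75th percentile scaling. A planned quasi-likelihood test on recovered counts was not run, because the size of 1 count could not be checked in all AOIs. Gjb6 and Aqp4, at means of 1.56 and 1.64 times the negative probe, leave the least room for a measurable fold.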
